A study of Mus musculus with 2 samples.

Results

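A set of 9 genes of the transforming growth factor β (TGF-β) pathway was followed in microglia of amyloid-bearing mice: *Tgfb1*, *Nrros*, *Tgfbr1*, *Tgfbr2*, *Smad2*, *Smad3*, *Smad4*, *Smad7* and *Ski*. They were chosen by name as the ligand, its latency partner, the receptors, the Smads and a co-repressor, and all 9 were present among the 32285 genes of the count table. Levels are given in CPM, the counts of a gene per 1000000 counts of all genes in a set of cells.

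TGF-β1 is released in a latent form that microglia tether to their surface through the protein encoded by *Nrros*, and it acts once it is freed from that complex. The active ligand binds the type II receptor (*Tgfbr2*), which phosphorylates the type I receptor (*Tgfbr1*), and the type I receptor in turn phosphorylates Smad2 and Smad3, which enter the nucleus with Smad4. Smad7 is an inhibitory Smad and a transcriptional target of the pathway, and Ski represses Smad-driven transcription. In the brain this pathway is known for keeping microglia in their homeostatic form.

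All mice were of the APPswe/PS1.delta.E9 (PSAPP) genotype, which carries a mutant amyloid precursor protein and a presenilin 1 lacking an exon. From 9 months of age they were gavaged every day for 1 month with vehicle (VEH) or with the orexin receptor antagonist lemborexant (LEM) at 30 mg/kg/day. At 10 months, live cells with low CD45 and with CD11b were sorted from the cortex and hippocampus of 1 hemisphere, and the cells of the 5 mice of a group, of both sexes, were pooled into 1 library. There was no group without the transgenes, and with 1 library per treatment no test of treatment was possible.

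The VEH library held 18374 cells with a median of 5971 counts and the LEM library 24392 cells with a median of 6034 counts. The 6 microglial markers checked, among them *Cx3cr1* and *P2ry12*, were each found in 98.4% of cells or more in both libraries. Of 22 markers of neurons, astrocytes, oligodendrocytes, endothelium, monocytes, T cells and neutrophils, only *Mag* and *Pecam1* exceeded 5 CPM in a library, and the T cell markers *Cd3e* and *Trac* were at 0. Cells were sorted into states by raw counts of marker genes that include none of the 9 genes. The homeostatic state took 9829 VEH and 10232 LEM cells. Disease-associated microglia (DAM, at least 3 of 5 markers such as *Cst7*, *Lpl* and *Spp1*) took 447 and 586. The others were Apoe high, intermediate (1 or 2 DAM markers), MHC class II high, Ccl3 and Ccl4 high, interferon and mitotic cells. As a check of the DAM gate, 12 of 12 DAM genes outside it were higher than in homeostatic cells, against 24.7% of all genes. All 12 were also higher in intermediate, MHC class II high, Ccl3 and Ccl4 high and interferon cells, so the count alone does not single out DAM. The median log2 difference was 2.34 in DAM and from 0.62 to 1.47 in those 4 states. In Apoe high cells 9 were higher, and in mitotic cells 6 were higher and 4 lower.

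All 9 genes were detected widely, with 3 tiers of detection. In VEH and LEM cells, *Tgfbr1* was found in 97.5% and 97.2%, *Tgfb1* in 87.6% and 88.2%, *Tgfbr2* in 81.3% and 84.0%, and *Nrros* in 72.2% and 78.7%. *Smad7* (67.6% and 69.0%) and *Ski* (62.0% and 63.5%) followed, and *Smad3* (36.3% and 36.8%), *Smad2* (35.5% and 36.6%) and *Smad4* (26.1% and 26.7%) were each found in a minority of cells. Droplets with choroid plexus markers, which also held microglial transcripts, carried *Tgfbr1* in 70.3% of 37 VEH and 68.5% of 124 LEM droplets, so a share of this size is not by itself evidence of expression by a cell. The intervals given below (95%) cover counting error only, and fewer cells of a kind and less RNA per cell cannot be told apart in summed counts.

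**Figure D1:**
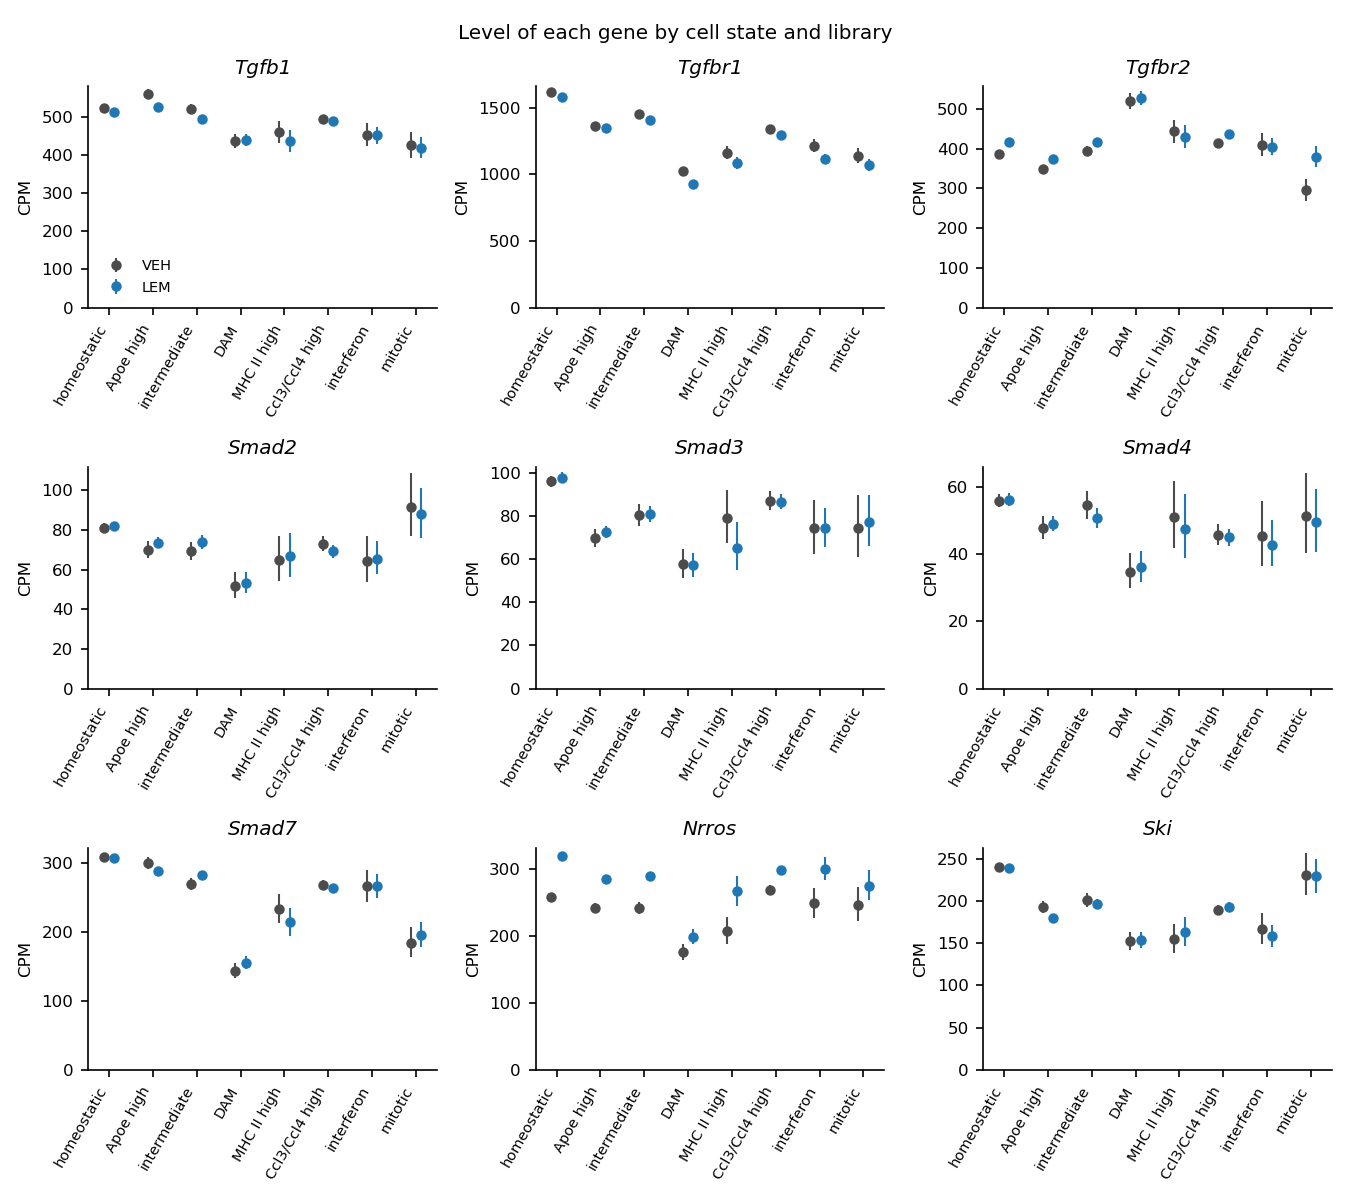
Level of each gene (CPM, axis from 0) in 8 gated cell states, with VEH in grey and LEM in blue and bars for exact 95% Poisson intervals of counting error. *Tgfbr2* was highest in DAM (520 and 527 CPM) while *Tgfbr1* and *Smad7* were lowest there, and the LEM points of *Nrros* lay above the VEH points in 8 of 8 states.

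The promoters of the 3 genes on which the results below turn most, the receptors and *Nrros*, are shown as the 250 bases before the RefSeq start in GRCm38.p6, 5′ to 3′ on the gene's strand. Capitals mark matches to a pair of short motifs on either strand. The Sp1 box was searched as GGGCGG. The SMAD box was searched as CAGAC.
Tgfbr1 (chr4:47352972-47353221, plus strand): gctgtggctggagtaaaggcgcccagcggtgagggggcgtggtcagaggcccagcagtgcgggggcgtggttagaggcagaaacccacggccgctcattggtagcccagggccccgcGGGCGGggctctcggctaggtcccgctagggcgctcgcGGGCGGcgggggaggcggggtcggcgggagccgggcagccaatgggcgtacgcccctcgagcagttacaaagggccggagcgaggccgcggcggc
Tgfbr2 (chr9:116175364-116175613, minus strand): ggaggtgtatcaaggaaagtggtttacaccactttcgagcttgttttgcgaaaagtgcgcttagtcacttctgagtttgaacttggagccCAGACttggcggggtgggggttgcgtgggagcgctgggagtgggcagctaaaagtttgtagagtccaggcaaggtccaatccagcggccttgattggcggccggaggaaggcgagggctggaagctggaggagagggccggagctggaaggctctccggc
Nrros (chr16:32165595-32165844, minus strand): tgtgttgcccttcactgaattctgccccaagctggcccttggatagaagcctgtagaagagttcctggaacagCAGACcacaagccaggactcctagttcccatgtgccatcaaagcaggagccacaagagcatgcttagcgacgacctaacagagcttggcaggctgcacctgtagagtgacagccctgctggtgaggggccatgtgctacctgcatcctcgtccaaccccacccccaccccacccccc
The *Tgfbr1* window held 2 Sp1 boxes and no SMAD box, and its GC content was 74.8%. The *Tgfbr2* and *Nrros* windows each held 1 SMAD box and no Sp1 box, at a GC content of 58.4% in both. Among 27025 mouse promoter windows of the same length, 42.1% held the SMAD box and 32.9% the Sp1 box on at least 1 strand, and the median GC content was 52%. The matches did not overlap each other, and they are letters in a window, not sites of binding.

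The receptors moved in opposite directions between homeostatic cells and DAM. *Tgfbr2* rose from 386 to 520 CPM in VEH cells and from 416 to 527 CPM in LEM cells, so that DAM lay above homeostatic cells in both libraries. Its fitted log2 difference was 0.68 ± 0.05 (SE, edgeR adjusted p = 6.2e-12). *Tgfbr1* was 1616 CPM in homeostatic and 1022 CPM in DAM cells of the VEH library, and 1584 and 926 CPM in the LEM library. It fell by 0.42 on the log2 scale (SE 0.04, edgeR adjusted p = 1.1e-09). The counts of *Tgfbr1* per count of *Tgfbr2* were 4.18 (interval 4.12 to 4.24) in VEH and 3.81 (3.75 to 3.86) in LEM homeostatic cells, and 1.97 (1.88 to 2.06) and 1.76 (1.69 to 1.83) in DAM. This ratio needs no scaling between states, and in either library it was lower in DAM than in each of the other 7 states, with intervals that did not overlap.

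Both receptors were still found together in DAM at a like depth. With each cell thinned to 2000 counts, *Tgfbr1* and *Tgfbr2* were both detected in 48.2% (47.2 to 49.2) of VEH and 50.1% (49.2 to 51.1) of LEM homeostatic cells, and in 51.2% (46.5 to 55.9) and 46.6% (42.5 to 50.7) of DAM. The homeostatic and DAM intervals overlapped in each library.

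The ligand behaved differently from its receptors. *Tgfb1* was 523 and 513 CPM in VEH and LEM homeostatic cells and 437 and 439 CPM in DAM, lower on the CPM scale in both libraries. The median gene was lower in DAM by 0.32 (VEH) and 0.34 (LEM) on the log2 CPM scale. Relative to that shift, the fitted difference of *Tgfb1* was 0.06 ± 0.04 (SE) and was not called (edgeR adjusted p = 0.26), whereas scaling by totals alone gave a called value of -0.24, DESeq2 a called value of 0.09 and stricter gates a called value of 0.17. Its direction in DAM is therefore not settled by these counts. *Nrros*, the tether of the latent ligand, was 258 and 319 CPM in homeostatic and 176 and 199 CPM in DAM cells of the VEH and LEM libraries. It fell by 0.32 (SE 0.05, edgeR adjusted p = 4.4e-06). After thinning, *Tgfb1* and *Nrros* were detected together in 25.1% (24.3 to 26.0) of VEH and 28.7% (27.8 to 29.6) of LEM homeostatic cells. In DAM the shares were 17.5% (14.0 to 21.3) and 16.2% (13.3 to 19.5), below the homeostatic intervals. Thinning to equal totals leaves the shift of the median gene in place, so these shares cannot separate a loss of the pair from that shift. In VEH and LEM they were 14.8% and 24.7% in MHC class II high cells and 25.7% and 17.9% in mitotic cells.

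The signal-carrying Smads were all lower in DAM. *Smad3*, which carries the signal into the nucleus, went from 96.0 to 57.9 CPM in VEH and from 97.6 to 57.1 CPM in LEM cells, and fell by 0.45 (SE 0.05, edgeR adjusted p = 3.2e-08). *Smad2*, its partner, went from 81.0 to 52.0 and from 81.8 to 53.3 CPM and fell by 0.32 (SE 0.06, edgeR adjusted p = 2.4e-05). *Smad4*, the shared partner of both, went from 55.9 to 34.8 and from 56.3 to 36.1 CPM and fell by 0.35 (SE 0.07, edgeR adjusted p = 1.6e-04). DAM counts of these 3 genes lay between 178 and 400 per library. The DAM and homeostatic CPM intervals did not overlap for any of them in either library. On that scale the median gene was itself lower in DAM by 0.32 (VEH) and 0.34 (LEM). These intervals therefore cannot tell a fall of a Smad from that shift, and only the fitted differences take it into account.

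Of the inhibitors, *Smad7* gave the largest difference of the 9 genes in DAM. It stood at 308 CPM in VEH and 308 CPM in LEM homeostatic cells and at 143 and 155 CPM in DAM. It fell by 0.74 (SE 0.05, edgeR adjusted p = 2.5e-12). The co-repressor *Ski* went from 241 to 152 CPM in VEH and from 240 to 154 CPM in LEM cells, and fell by 0.35 (SE 0.05, edgeR adjusted p = 1.5e-06).

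In all, 1 of 9 genes was higher and 7 of 9 were lower in DAM, against 24.7% of 13857 genes higher and 22.4% lower. The median difference over the 9 genes was -0.35, beside -0.03 over all genes tested. Scaled by totals, the split was 1 higher and 8 lower among the 9 genes, against 14% and 49.9% of all genes, and 21.9% of all called genes were higher in place of 52.4%. DAM cells were deeper than homeostatic ones, with medians of 11360 and 11910 counts against 5542 and 5322. In cells of 4000 to 10000 counts *Smad2* and *Smad4* kept their sign and lost their call, and the other 6 calls were kept. Summed astrocyte markers were 4.89 and 7.14 CPM in DAM against at most 1.76 CPM in homeostatic cells, and their part in the result was not tested. The spread behind these tests is that between 2 libraries given different treatments, over 16 summed profiles.

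**Figure D2:**
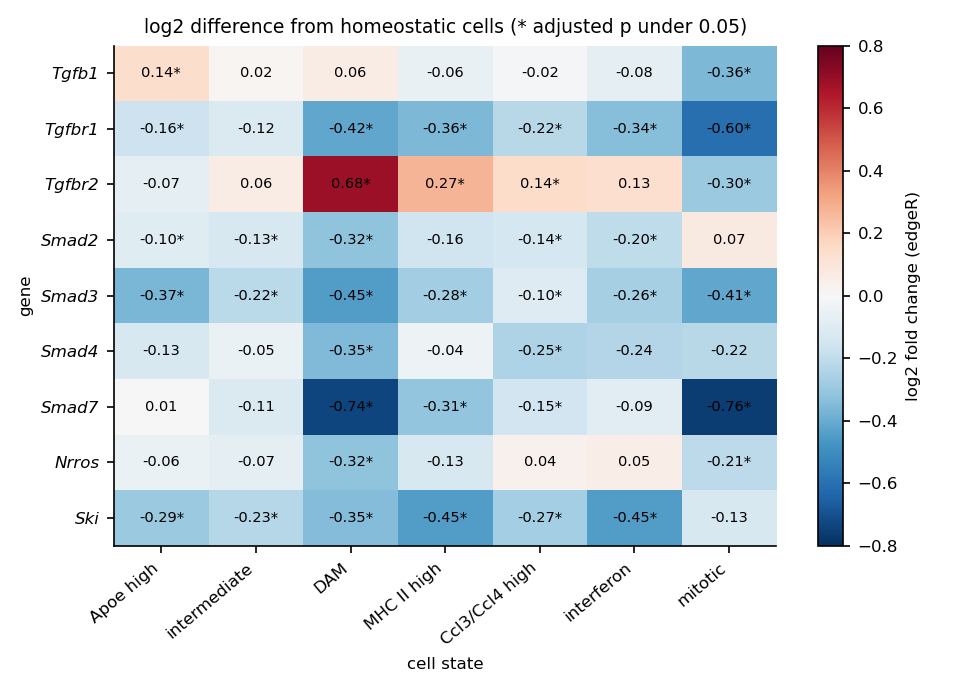
Fitted log2 difference of each gene (rows) between 7 cell states (columns) and homeostatic cells, from edgeR on counts summed per library and state, with red for higher, blue for lower and an asterisk for an adjusted p under 0.05. The DAM column holds 8 calls of 9, with *Tgfbr2* alone in red among them, and 38 of the 63 values are called.

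The levels also differed with the number of DAM markers a cell showed, a reading chosen after the state values were seen. They are in CPM, with no correction for the shift of the median gene. The median gene was lower in DAM by 0.32 (VEH) and 0.34 (LEM) on the log2 CPM scale. Among homeostatic, Apoe high, intermediate and DAM cells, *Tgfbr1* stood at 1564 CPM (VEH) and 1493 CPM (LEM) where no DAM marker was detected, at 1292 and 1254 CPM with 2 markers, just outside the gate, and at 1100 and 970 CPM with 3, just inside it. With 4 markers it was 920 and 877 CPM. *Smad7* went from 306 and 300 CPM without a marker to 220 and 241 CPM with 2, 161 and 167 CPM with 3, and 120 and 142 CPM with 4. *Tgfbr2* ran the other way, from 379 and 400 CPM without a marker to 442 and 446 CPM with 2 and 546 and 510 CPM with 3, and was 484 and 550 CPM with 4. *Tgfb1* was 531 and 518 CPM without a marker, 439 and 492 CPM with 2, 421 and 423 CPM with 3, and 461 and 461 CPM with 4.

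Deeper cells show more markers, so the same was read in cells of 4000 to 10000 counts. There *Tgfbr1* was 1514 and 1447 CPM without a marker and 1009 and 759 CPM with 4, in 44 VEH and 56 LEM cells. *Smad7* was 296 and 292 CPM without a marker and 111 and 151 CPM with 4. *Tgfbr2* was 369 and 391 CPM without a marker, 586 and 509 CPM with 3, and 493 and 478 CPM with 4. For these 3 genes the intervals at 0 and 4 markers did not overlap in either library. For *Tgfb1* they overlapped in both, at 532 (526 to 538) and 523 CPM (518 to 528) without a marker and 458 (389 to 535) and 495 CPM (430.1 to 566) with 4. With 3 markers *Tgfb1* was 440 (396 to 487) and 449 CPM (409 to 493), below the intervals without a marker. The shift of the median gene was not taken out of these levels, so the direction of *Tgfb1* stays unsettled.

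**Figure D3:**
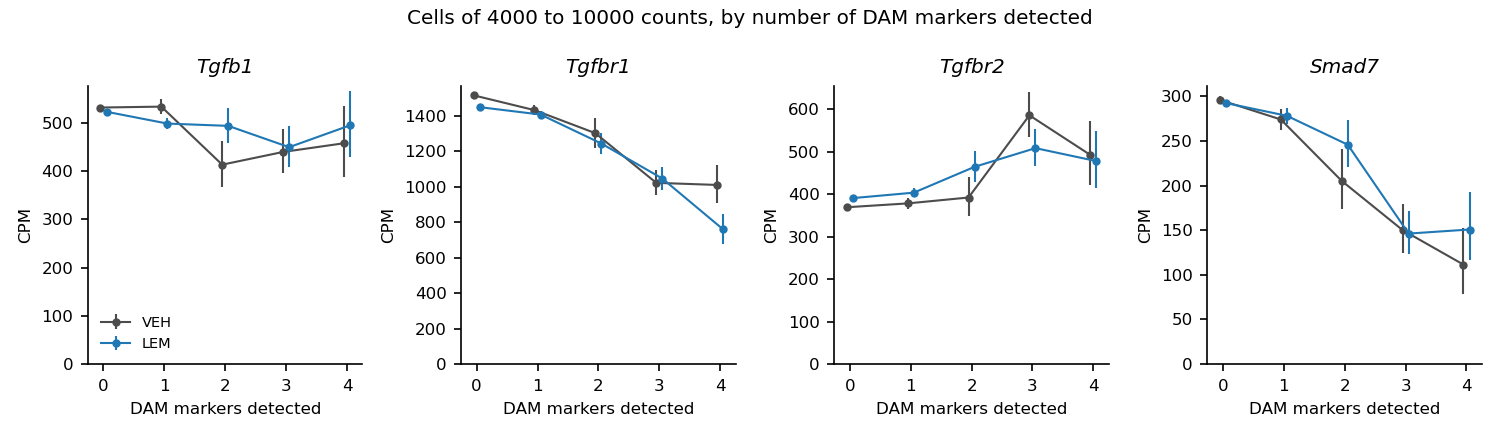
Level of *Tgfb1*, *Tgfbr1*, *Tgfbr2* and *Smad7* (CPM, axes from 0) by the number of DAM markers detected, in cells of 4000 to 10000 counts, VEH in grey and LEM in blue with exact 95% Poisson intervals. The levels are not corrected for the shift of the median gene. *Tgfbr1* fell from 1514 and 1447 CPM at 0 markers to 1009 and 759 CPM at 4, and *Smad7* from 296 and 292 to 111 and 151 CPM.

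The other states shared parts of the DAM pattern. *Tgfbr1* was lower than in homeostatic cells in 6 of the 7 states, and its intermediate value of -0.12 was not called (edgeR adjusted p = 0.067). It fell by 0.60 in mitotic, 0.36 in MHC class II high, 0.34 in interferon, 0.22 in Ccl3 and Ccl4 high and 0.16 in Apoe high cells. *Smad3* was lower in 7 of 7 states, from a fall by 0.10 in Ccl3 and Ccl4 high to a fall by 0.45 in DAM cells. In Ccl3 and Ccl4 high cells its call was kept under only 2 of 9 alternative ways of processing. *Tgfbr2* rose in MHC class II high (0.27 ± 0.06) and Ccl3 and Ccl4 high cells (0.14 ± 0.05) and fell by 0.30 in mitotic cells. The mitotic fall was uneven between libraries, at -0.46 in VEH and -0.16 in LEM cells relative to the median gene.

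In MHC class II high cells *Tgfbr2* rose and *Tgfbr1*, *Smad3*, *Smad7* and *Ski* fell, against 12.3% of all genes higher and 9.66% lower, and *Ski* was the lowest (a fall by 0.45). Summed markers of astrocytes were 4.81 and 6.53 CPM in these cells against 1.505 and 1.76 CPM in homeostatic cells. Those of border-associated macrophages were 70.3 and 71.4 CPM against 2.73 and 1.90 CPM, and monocyte markers were 29.8 and 48.5 CPM against 6.81 and 7.75 CPM. Monocyte markers also stood at 38.1 and 38.5 CPM in interferon and 51.3 and 72.9 CPM in mitotic cells, and the part of these markers in the results was not tested. In Ccl3 and Ccl4 high cells 1 rose and 6 fell, against 12.3% and 11.7%, all within 0.27 of zero. In Apoe high cells 1 rose and 4 fell, against 8.85% and 9.7%, and the fall of *Smad2* among them was called under only 3 of 9 alternatives. The gene that rose there was the ligand *Tgfb1*, at 560 CPM in VEH and 526 CPM in LEM cells (0.14 ± 0.04, edgeR adjusted p = 0.015). *Smad3* fell by 0.37 in the same cells. The median gene was lower on the CPM scale by 0.16 (VEH) and 0.17 (LEM) in MHC class II high and by 0.11 and 0.14 in interferon cells. It was lower by under 0.1 in Apoe high, intermediate and Ccl3 and Ccl4 high cells and higher by 0.07 and 0.03 in mitotic cells. Scaled by totals, the share of called genes that were higher went from 47.7% to 16.1% in Apoe high, 57.8% to 30.2% in intermediate, 56.1% to 29.7% in MHC class II high, 51.2% to 30.5% in Ccl3 and Ccl4 high and 58.1% to 31.9% in interferon cells. Among the 9 genes, 0 were then higher in these 5 states, against 3.62%, 3.93%, 8.52%, 8.47% and 8.39% of all genes, and 7, 5, 7, 6 and 7 were lower in that order, against 18.8%, 9.07%, 20.1%, 19.3% and 17.9% of all genes. The rises of *Tgfb1* in Apoe high cells and of *Tgfbr2* in Ccl3 and Ccl4 high and MHC class II high cells were not called when scaled by totals.

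In intermediate cells none of the 9 rose and *Smad2*, *Smad3* and *Ski* fell, against 5.05% and 3.69% of all genes. The call of *Smad2* there was kept under only 3 of 9 alternatives. In interferon cells none rose and *Tgfbr1*, *Smad2*, *Smad3* and *Ski* fell, against 12.1% and 8.74%, and *Smad2* kept its call under only 4 of 9 alternatives. In mitotic cells none rose and 6 fell, against 25% and 24.5%, and the counts by totals were the same, against 27.6% and 20.9%. *Smad7* fell by 0.76 there, a size like that in DAM, from 308 and 308 CPM in homeostatic to 184 and 196 CPM in mitotic cells. *Tgfb1* fell by 0.36, its 1 call as lower among the 7 states. *Ski* and *Smad2* were not called in mitotic cells, at -0.13 and 0.07, and in cells of 4000 to 10000 counts *Ski* was called higher at 0.29.

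The sexes were not spread evenly over states, which touches each of these comparisons. Cells were called female by *Xist* and male by Y-linked genes. Cells with both signals, which can be doublets, were 981 VEH and 1764 LEM cells, at 4.17% and 4.79% of the homeostatic state and 9.62% and 12.8% of the deeper DAM. They were in neither sex but stayed in the states. Of the cells so called, females made up 42.0% (VEH) and 53.3% (LEM) in the homeostatic state, 39.9% and 46.0% in DAM, and 16.6% and 18.6% in Apoe high cells. With the 4 pools of library by sex as a block, which leaves out cells with both signals or neither, 57 of the 63 values kept both their sign and their side of the threshold, 8 of 8 DAM calls among them.

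Between treatments, *Nrros* alone passed a log2 ratio of 0.1. It was 251 CPM (248 to 254) in the VEH and 296 CPM (293 to 298) in the LEM library, a log2 ratio of 0.24 (0.22 to 0.26) that exceeded 97.5% of the 7526 genes found in 10% or more of the cells of a library. Of the 9 genes 1 was higher and none was lower by this measure, against 14.1% and 9.86% of those 7526 genes. The median of the 9 was -0.04 and that of all 7526 was 0.01. Such a count is near the background, and with 1 pool per treatment the spread between mice is unknown.

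*Nrros* was higher in the LEM library in 8 of 8 states. The log2 ratio ran from 0.15 in Ccl3 and Ccl4 high cells to 0.36 in MHC class II high cells, and the counting interval lay above zero in 7 states, mitotic cells being the exception (-0.03 to 0.35). In homeostatic cells it went from 258 to 319 CPM (0.31, interval 0.28 to 0.34) and in DAM from 176 to 199 CPM (0.18, interval 0.06 to 0.30). A ratio of at least 0.1 in each of the 8 states was met by 1.44% of the 7526 genes. Split further by sex, *Nrros* was higher in LEM in 15 of 16 sets of cells, and male mitotic cells were the other one at -0.03. Over all states, female cells gave a ratio of 0.33 (0.29 to 0.37). Male cells gave 0.18 (0.15 to 0.21).

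Outside the microglial states, the cells under 2000 counts were 1305 VEH and 1215 LEM cells, and their *Nrros* ratio was 0.41 (0.23 to 0.59). *Nrros* did not stand out there. *Ski* (0.33), *Smad3* (0.32), *Tgfb1* (-0.25), *Tgfbr1* (-0.235) and *Tgfbr2* (-0.22) also had intervals away from zero in these cells. The intervals of *Smad2*, *Smad4* and *Smad7* held zero. Cells of the other kinds were few. *Nrros* was 152 and 118 CPM in choroid plexus droplets and 378 and 344 CPM in cells with markers of border-associated macrophages, which were 15 VEH and 61 LEM cells, and both intervals of the ratio held zero. The share of choroid plexus droplets was 0.201% in VEH and 0.508% in LEM, and without them and the macrophages the *Nrros* ratio was 0.24. On chromosome 16, 10 other genes within 500 kb of *Nrros* passed the detection minimum. Of these, 3 were higher by at least 0.1, led by *Pigx* at 0.18, and none was lower, with a median of 0.00.

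**Figure D4:**
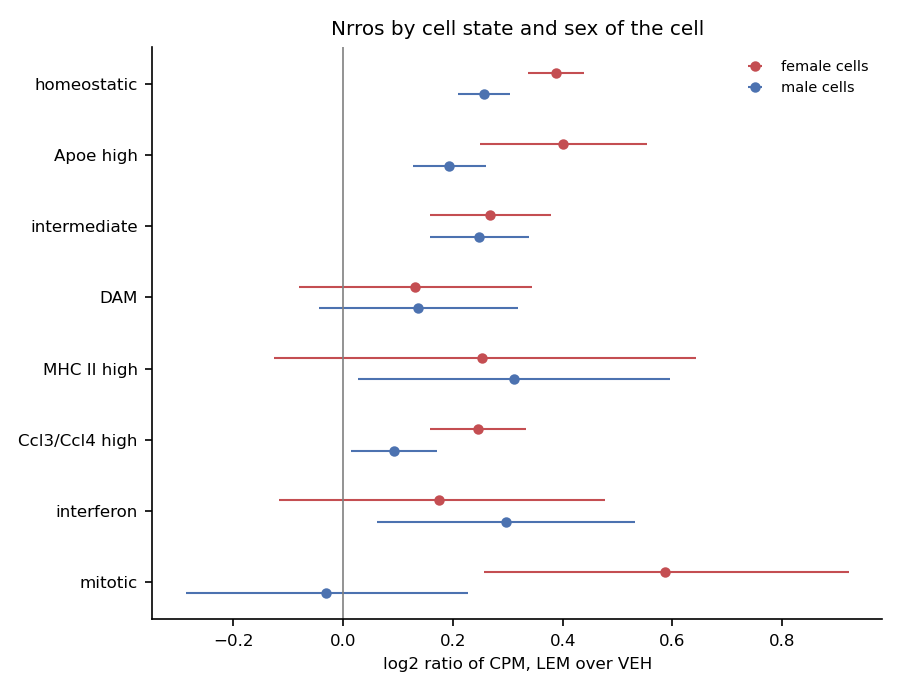
Log2 ratio of *Nrros* CPM, LEM over VEH, in 8 cell states for female (red) and male (blue) cells, with 95% counting intervals. The ratio was above zero in 15 of the 16 sets, and the male mitotic set lay at -0.03.

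The receptors differed little between libraries. Ratios over all cells also hold the mix of states, whose part was not tested. Homeostatic cells were 53.49% of VEH and 41.95% of LEM cells, and Apoe high cells 10.98% and 19.97%. *Tgfbr1* was 1473 CPM (1466 to 1480) in VEH and 1395 CPM (1389 to 1401) in LEM, a log2 ratio of -0.08, and was lower in LEM in 8 of 8 states, in 6 of them with an interval below zero. Within states the ratio ran from -0.14 in DAM to -0.02 in Apoe high cells, with -0.03 in homeostatic cells. A lower value in each of the 8 states was met by 4.48% of the 7526 genes. Split further by sex, *Tgfbr1* was higher in LEM in 5 of 16 sets of cells, among them male homeostatic cells at 0.04 (0.02 to 0.06). *Tgfbr2* was 394 and 413 CPM, a ratio of 0.07. It was higher in LEM in 6 of 8 states, most in mitotic cells (296 to 379 CPM, ratio 0.36). In homeostatic cells its ratio was 0.11, so that it passed 0.1 there with *Nrros*.

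*Tgfb1* (516 and 500 CPM) and *Ski* (217 and 207 CPM) had ratios of -0.05 and -0.07. With both sexes pooled, the interval for *Ski* excluded zero in 1 of 8 states, Apoe high (194 and 180 CPM). In homeostatic cells the *Ski* levels of 241 and 240 CPM held opposite ratios. Female cells gave -0.13 (-0.18 to -0.08). Male cells gave 0.13 (0.08 to 0.18). The Smads had the ratios closest to zero over all cells. *Smad7* was 286 and 281 CPM, *Smad3* 87.3 and 85.1 CPM, *Smad2* 75.3 and 74.7 CPM and *Smad4* 51.9 and 50.6 CPM, with ratios from -0.04 to -0.01. For *Smad2*, *Smad3* and *Smad4* no state had an interval that excluded zero with both sexes pooled. In homeostatic cells this held opposite ratios by sex for *Smad2*, which was -0.11 for females (-0.20 to -0.01) and 0.16 for males (0.07 to 0.25), and for *Smad4*, which was -0.13 (-0.24 to -0.01) and 0.20 (0.09 to 0.31). *Smad4* overlaps a gene on the opposite strand, and whether counting used strand is not given in the sources used here.

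The sex of the cells split some of these ratios. *Tgfbr2* was 421 and 402 CPM in VEH and LEM female cells (-0.07, interval -0.10 to -0.04) and 376 and 422 CPM in male cells (0.17, interval 0.14 to 0.19). *Smad4* was 53.5 and 49.0 CPM in female (-0.13) and 49.9 and 53.2 CPM in male cells (0.09). The log2 ratio of female over male cells for *Tgfbr2* was 0.16 within the VEH and -0.07 within the LEM library. *Smad3*, in contrast, was higher in female cells by 0.24 in both libraries (95.8 against 80.9 CPM in VEH and 92.6 against 78.1 CPM in LEM), and for *Smad7* the female over male ratio was -0.23 and -0.13. The number of mice of each sex in a pool is not given in the sources used here, so differences between sexes and between mice cannot be told apart.

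**Figure D5:**
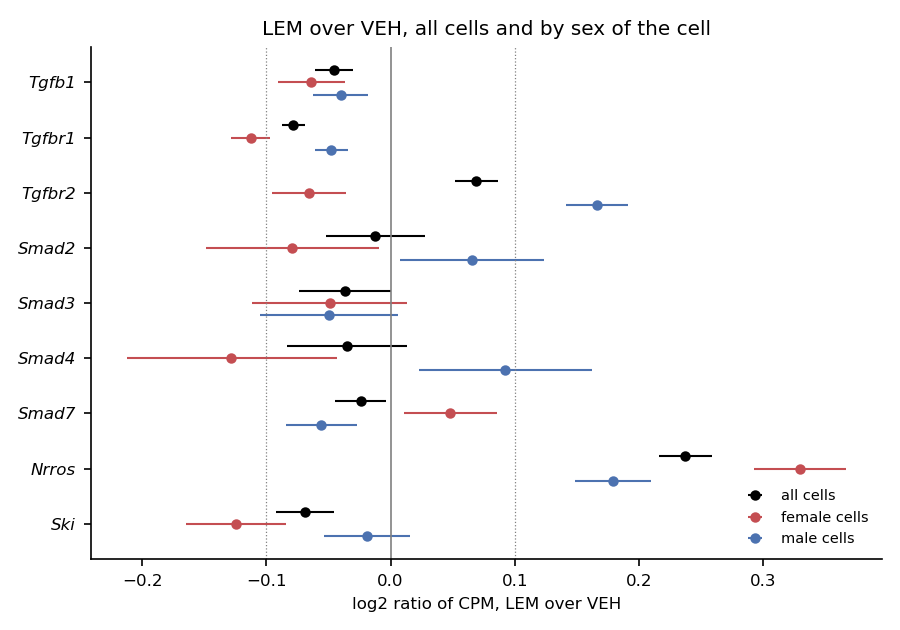
Log2 ratio of CPM, LEM over VEH, of the 9 genes in all cells (black), female cells (red) and male cells (blue), with 95% counting intervals and dotted lines at -0.1 and 0.1. *Nrros* lies beyond 0.1 in each of the 3 sets of cells, while the female and male points of *Tgfbr2*, *Smad2*, *Smad4* and *Smad7* fall on opposite sides of zero.

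Other genes of the pathway are given by lists, whose DAM counts moved with the scaling, so the counts with scaling by totals follow each. Each count stands beside 24.7% of all genes higher and 22.4% lower in DAM, or 14% and 49.9% by totals, and each count between libraries beside 14.1% higher and 9.86% lower. Among genes of latency and activation, 6 of 11 tested rose and 2 fell in DAM, with a median of 0.38, and 2 rose and 3 fell by totals. The chaperone *Hsp90b1* rose under both (0.55 ± 0.04). The largest difference of the list was that of *Itgb8*, an integrin subunit found in under 10% of cells of either state. It stood at 5.32 and was called higher by totals at 5.02. The integrin subunit *Itgb3* (0.39 ± 0.09) was called under TMM alone. The integrin subunit *Itgav* fell by 0.37 and the protease *Mmp2* by 0.22. Between libraries 3 of 8 passed 0.1 and all 3 were higher in LEM, namely *Mmp2* (37.3 and 44.4 CPM), *Mmp14* (27.7 and 31.3 CPM) and the convertase *Furin* (49.7 and 55.7 CPM). Of the other ligands of the family, 2 of 12 could be tested in DAM, *Tgfb2* and *Gdf15*, and both rose under both scalings, though none of the 12 reached 10% of cells in a library.

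Other receptors of the family had 0 of 8 higher and 4 lower in DAM, and 0 higher and 7 lower by totals. The co-receptor endoglin, *Eng*, went from 115 to 52.8 CPM and fell by 0.81, and the activin receptor *Acvr2a* fell by 0.91. *Acvr1b* (0.12) and *Bmpr2* (-0.11) were not called. Between libraries 1 of 7 was higher, *Acvr2b* by 0.15 on the log2 scale, and 2 were lower, *Acvr2a* and *Eng* (110 and 97.3 CPM). Among the Smads outside the 9, *Smad1*, which serves bone morphogenetic proteins, fell by 0.53, the 1 call of 3 tested, and 3 of 3 were lower by totals.

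Among regulators 4 of 24 rose and 12 fell in DAM, and 2 rose and 19 fell by totals. *Ldlrad4*, an inhibitor that is also induced by the pathway, went from 936 to 409 CPM and fell by 0.89, and the co-repressor *Tgif2* fell by 0.83. *Fkbp1a*, which binds the type I receptor, rose under both scalings (0.71 ± 0.06), and *Tgif1* (0.31 ± 0.06) under TMM alone. The largest difference of the list was a rise, that of *Bambi*, a gene found in too few cells to be compared between libraries. It stood at 2.87 and was called higher by totals at 2.57. Between libraries 1 of 23 was higher and 1 was lower, the ubiquitin ligases *Rnf111* (86.3 and 97.5 CPM) and *Smurf1* (47.5 and 38.2 CPM).

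The genes known to be induced through Smad3 were split in DAM, where 4 of 12 rose and 5 fell with a median of -0.10, and 3 rose and 7 fell by totals. *Tgfbi* fell by 0.88 and was lower under both scalings. *Bhlhe40* went from 0.0612 to 38.0 CPM, and so few homeostatic counts give no fold. Between libraries *Smurf1*, *Tgfbi* and *Id2* were lower by at least 0.1 among the 9 genes of the list that were found in enough cells.

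Of 22 homeostatic genes that depend on TGF-β, *P2ry12*, *Cx3cr1* and *Tmem119* are markers of the homeostatic gate, so their falls in DAM (by 0.63, 0.54 and 0.88) are no result. Of the other 19, 7 rose and 10 fell in DAM with a median of -0.13, and 0 rose and 14 fell by totals with a median of -0.43. Among them *P2ry13* went from 496 to 212 CPM and fell by 0.94. *Fcrls* (0.32 ± 0.07) and *Cst3* (0.33 ± 0.05) were higher under TMM alone. Between libraries *Fcrls* (1042 and 1318 CPM) and *Olfml3* (1586 and 1808 CPM) were higher by at least 0.1, and *Pros1* (270 and 240 CPM) and *Cst3* were lower in LEM. The median of all 22 between libraries was 0.01.

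The genes most like each of the 9 over the 16 profiles of state and library were read as a description, since profiles of 1 library share their cells' source. *Tgfbr1* was most like *Usp24*, *Tanc2* and *Fhit* (Pearson r of 0.99, 0.98 and 0.98), and *Smad7* most like *Abhd15*, *Plekho1* and *Txnip* (0.98 each). *Tgfbr2* was most like *Crtap*, *Tec* and *Speg* (0.93 each), *Nrros* like *Gm10138*, *Zyx* and *Mtif2* (0.95, 0.93 and 0.92), and *Tgfb1* like *Clstn1*, *Rdh14* and *Hnmt* (0.95, 0.95 and 0.94). *Smad2* (*Agps*, *Fmnl1*, *Med13l*) and *Ski* (*Fto*, *Med13l*, *Kdm3b*) shared 1 of their 3. *Smad3* was most like *Maml2*, *Mtr* and *Tbc1d5*, and *Smad4* like *Col4a3bp*, *Ctnnd2* and *Phactr2*. Within the 9 genes, *Tgfbr2* had a negative r with each of the other 8, from -0.82 with *Smad2* to -0.22 with *Tgfb1*, and the other 28 pairs had a positive r, up to 0.88 between *Smad2* and *Ski*. These r are on log2 CPM scaled by totals, where the median gene shifted between states. The share of positive r over pairs of all genes was not computed, so the count is not read as a result.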

How the data were processed

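The authors prepared 5′ libraries on the 10x Chromium platform and counted reads with Cell Ranger 8.0.0 on mm10. They deposited counts (whole numbers, 1 row a gene and 1 column a cell) that were not normalized, for cells of 501 or more genes and at most 19999 counts. Before these filters the authors removed ambient RNA with SoupX. Whether the deposited whole numbers are the corrected counts is not given in the sources used here. Cell names are numbers, so barcodes shared between libraries could not be counted. All columns of cells were matched to a library (0 were left unmatched).

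The 9 genes, the gates and the lists were chosen with earlier results of these data known. Cells were gated on raw counts (at least 3 markers, or summed counts of at least 10, after setting aside cells under 2000 counts). Counts were summed over cells of a library, sex or state. CPM got exact Poisson, shares Clopper-Pearson and ratios of LEM over VEH exact conditional binomial intervals (95%). A ratio counted as past the fold at 0.1 (log2) among genes found in at least 10% of a library's cells. States were compared by the quasi-likelihood test of edgeR 4.0.16 (R 4.3.3) with TMM, library as a term, 7 residual degrees of freedom and Benjamini-Hochberg adjustment over 13857 genes at 0.05, with DESeq2 1.42.0 among the alternatives. The edgeR test and the interval of the ratio were each tried on simulated data, and DESeq2 was not. From each list, the 2 highest and 2 lowest genes found in at least 10% of cells were named, and for each of the 9 genes the 3 most alike by Pearson r. Doublets were kept. Scrublet (scanpy 1.11.5, expected rate 0.1) called 0 VEH cells by its automatic threshold, so the alternative without doublets left out the 1837 VEH and 2439 LEM cells with the highest scores, a choice made after seeing the data, as was the reading by number of DAM markers. Promoters are RefSeq sequences of GRCm38.p6 (the 6 of the 9 genes outside chromosome 18 were looked up) and gene positions are from GENCODE M21.
Genes singled out beyond these rules (*Furin*, *Acvr2b*, *Tgfb2*, *Gdf15*, *Id2*, *Itgb8*, *Bambi*) were chosen after their values were seen. Some results that the rules would name are left out here.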

Additional observations from a re-analysis of the deposited data

Results flagged for a closer look

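Over all cells, in 4 genes the LEM over VEH ratio had opposite signs in female and male cells, with both counting intervals away from zero. The log2 ratios in female and male cells were -0.0655 and 0.166 for *Tgfbr2*, -0.0793 and 0.0655 for *Smad2*, -0.128 and 0.0923 for *Smad4*, and 0.0482 and -0.0558 for *Smad7*. In homeostatic cells the same held for 5 genes, at -0.0768 and 0.0352 for *Tgfbr1*, -0.0420 and 0.263 for *Tgfbr2*, -0.106 and 0.158 for *Smad2*, -0.127 and 0.203 for *Smad4*, and -0.130 and 0.132 for *Ski*. It held for *Tgfbr2* in Apoe high cells (-0.150 and 0.149) and for *Ski* in Ccl3 and Ccl4 high cells (-0.157 and 0.155). With 1 pool per treatment this difference between sexes was not tested.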

How the results depend on the processing

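No paired analysis was possible because each treatment has 1 library. Of the 9 genes, 1 passed a LEM over VEH ratio of 0.1, and this count was 4 in female, 2 in male and 2 in homeostatic cells alone, and 1 under the other 7 alternatives. Beside *Nrros*, these were *Tgfbr1*, *Smad4* and *Ski* (lower) in female and *Tgfbr2* in male and in homeostatic cells. The median ratio (-0.04) was -0.0655 in female and 0.0098 in homeostatic cells. *Nrros* stayed between 0.18 and 0.33.

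Against homeostatic cells, 38 of 63 values were called, and 24 without the library term. Counts of called genes that moved by over 1.5 times were these. Totals without TMM gave 5 in intermediate (from 3) and 7 in interferon cells (from 4). Stricter gates gave 5 in intermediate cells. Cells of 4000 to 10000 counts gave 3 in Apoe high (from 5), 1 in intermediate and 2 in interferon cells. Thinning gave 3 in MHC class II high cells (from 5). Without the library term there were 2 in Apoe high, 0 in intermediate and 2 in Ccl3 and Ccl4 high cells (from 7). In DAM, *Tgfbr1*, *Tgfbr2*, *Smad3*, *Smad7* and *Ski* kept their call under 9 of 9 alternatives, and *Smad2*, *Smad4* and *Nrros* under 8.

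Signs turned as follows. By totals, *Tgfb1* was -0.2406 in DAM and -0.0299 in intermediate, *Smad7* -0.0697 in Apoe high, and *Nrros* -0.0217 in Ccl3 and Ccl4 high and -0.0652 in interferon cells. In cells of 4000 to 10000 counts, *Ski* was 0.2943 and *Smad4* 0.0149 in mitotic cells, and *Smad4* 0.0198 in intermediate and 0.0037 in MHC class II high cells. Thinned, *Smad7* was -0.0519 in Apoe high, *Smad2* 0.0409 in MHC class II high, *Tgfb1* 0.0041 in Ccl3 and Ccl4 high and *Tgfbr2* -0.0021 in interferon cells. With the 4 pools, *Smad7* was -0.0706 in Apoe high and *Smad4* 0.0368 in MHC class II high cells. *Smad7* in Apoe high cells was -0.0012 with stricter gates and -0.0042 without the highest Scrublet scores, and *Smad2* in mitotic cells was -0.0054 without a filter. Only *Tgfb1* in DAM and *Ski* in mitotic cells were called with the turned sign, and the causes were not tested. With either library alone, 0 of 38 called values turned. Counts of *Smad2*, *Smad3* and *Smad4* in the small states limit what can be seen there.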
